A study of Mus musculus with 2 samples.

Results

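The 9 genes described here encode receptors and bridging proteins with which a macrophage recognises and takes up apoptotic cells, and the pair that passes the signal to the cytoskeleton. They are Mertk, Axl, Tyro3, Timd4, Gas6, Pros1, Mfge8, Elmo1 and Dock1, chosen by gene name and matched by GENCODE M21 symbol and identifier. All 9 were found among the 55536 annotated genes of the gene table, and their 46 transcripts in both kinds of transcript table. The samples were 2 libraries of 1 group of bone marrow-derived macrophages (primary cells that were differentiated from C57BL/6J mouse marrow) at 0 minutes of a stimulation with 100 ng/ml lipid A. RNA of the chromatin fraction, which holds RNA still attached to its template, was depleted of ribosomal RNA and sequenced as total RNA, from 250 ng in replicate 1 and 500 ng in replicate 2. The labels give no genotype beyond the strain and record neither sex nor age. They number the libraries as biological replicates 1 and 2 and give both 1 donor entry, so whether their spread includes variation between animals cannot be told. With 1 group there is no second condition to compare and no p-value is given.

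An apoptotic cell exposes phosphatidylserine on its surface. Tyro3, Axl and Mertk, the TAM receptor tyrosine kinases, bind it through Gas6, and some of them through protein S (Pros1), both vitamin K-dependent proteins. Timd4 (TIM-4) binds it directly and Mfge8 bridges it to integrins. Elmo1 and Dock1 form a complex that activates the GTPase Rac, which drives the closing of the phagocytic cup. Mertk is the TAM receptor best known for uptake by macrophages, Axl is known to be raised in inflammation, and Timd4 is known from resident macrophages of several tissues.

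The gene table held 10970767 expected counts in replicate 1 and 14207280 in replicate 2, and the second of the transcript tables held 19200416 and 24693077. An expected count is an estimated number of reads, and TPM is that number per effective length, scaled to a fixed sum per library. In the gene table all 8 of 8 macrophage marker genes reached 1 TPM in both replicates, led by Lyz2 (lysozyme) at 191 and 161 TPM. Among 8 stromal markers none did, and the highest, Acta2, stood at 0.54 and 0.40 TPM. Kdr alone of 8 endothelial markers passed (1.93 and 3.16 TPM), as did 4 of 8 megakaryocyte markers led by Treml1 (12.4 and 10.7 TPM) and 2 of 8 dendritic cell markers led by Batf3 (6.61 and 4.04 TPM). Summed over each list, the stromal markers came to 1.33 and 1.25 TPM, the endothelial to 2.18 and 3.32, the megakaryocyte to 29.9 and 17.6, and the dendritic cell markers to 8.53 and 6.21. Cdh5, Cldn5, Cd209a and Gp1bb had no read in either table. Flt3 and Pdgfra, at 0 in the gene table, had values in the second transcript table of 0.540 and 0.826 TPM and of 0.375 and 0.410 TPM. The part of these other cells in the levels below was not tested.

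Of the 9 genes, 7 were detected, which here means at least 1 TPM in each replicate, against 46.7% of 22028 protein-coding genes and 25.2% of all annotated genes. Their median level was 21.5 ± 2.57 TPM (SD of the replicates' medians, n = 2), where the median of all protein-coding genes was 0.72 and that of the detected ones 11.1. The levels covered a wide range, with Mertk, Gas6, Dock1 and Elmo1 high, Mfge8, Axl and Pros1 lower, and Tyro3 and Timd4 under 1 TPM. In bulk RNA, fewer cells that express a gene and less RNA per cell cannot be told apart.

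Among the receptors, Mertk (ENSMUSG00000014361.5, chromosome 2, 128698956 to 128802894, mm10) was listed at 135 TPM in replicate 1 and 115 in replicate 2, from 5609 and 7157 counts. This was the highest level of the 9 genes, 125 ± 14.2 TPM (SD, n = 2), and rank 282 of the 22028 protein-coding genes. Axl (ENSMUSG00000002602.16, chromosome 7, 25757273 to 25788705) stood at 8.46 and 7.96 TPM, from 199 and 305 counts, and ranked 6119. Tyro3 (ENSMUSG00000027298.17, chromosome 2, 119797733 to 119818104) stood at 0.26 and 0.71 TPM from 10 and 18 counts. The receptor levels did not overlap: both libraries gave Mertk above Axl and Axl above Tyro3. Within a library, Mertk was 15.9 and 14.4 times Axl by TPM. This ratio was 8.73 and 8.75 in the second transcript table, where Axl was listed at 11.8 and 15.5 TPM. Timd4 (ENSMUSG00000055546.6, chromosome 11, 46810800 to 46844332) had 1 count in replicate 1 and 0 in replicate 2, and 1 count in each by the second transcript table. Where no read is counted, up to 3 counts remain possible, which for Timd4 is 0.10 TPM in replicate 2, and the 1 count of replicate 1 was listed as 0.05 TPM, so that no level could be set at this depth. Such floors cover counting error only.

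Other markers of resident macrophages were mixed. Of 8 such genes 3 were detected in the gene table, led by Cd5l, a secreted scavenger receptor family protein, at 47.1 and 30.9 TPM. The others were Spic (2.30 and 2.54 TPM) and Cd163 (1.71 and 1.60 TPM), while Vsig4 (0.97 and 0.27 TPM) and Folr2 (0.70 and 0.64 TPM) were not detected. The second transcript table listed Vsig4 at 5.81 and 5.81 TPM, Folr2 at 1.13 and 1.66 TPM and Cd163 at 4.05 and 7.23 TPM. Clec4f and Lyve1, which mark liver and vessel-associated macrophages, had no read in either table, and Gata6, which marks those of the peritoneum, had none in the gene table and 0.0286 TPM in replicate 2 of the second transcript table. The list's median was 0.645 TPM in the gene table and 2.18 in the second, near the medians of all protein-coding genes, 0.72 and 2.12 TPM.

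Of the TAM ligands, Gas6 (ENSMUSG00000031451.6, chromosome 8, 13465374 to 13494490) was listed at 91.8 and 94.8 TPM, from 2195 and 3389 counts, which put it second of the 9 and at rank 441. Pros1 (ENSMUSG00000022912.8, chromosome 16, 62854307 to 62929346) stood at 3.50 and 3.15 TPM from 87 and 101 counts, at rank 8515. Both libraries thus held far more Gas6 than Pros1 RNA: the ratio was 26.2 and 30.1 in the gene table and 27.2 and 28.5 in the second transcript table. Mertk exceeded Gas6 by 1.47 and 1.21 times. Mfge8 (ENSMUSG00000030605.15, chromosome 7, 79133768 to 79149060), the integrin bridge, stood at 23.3 and 19.7 TPM from 249 and 286 counts, at rank 3037. It lay between the ligands, below Gas6 and above Pros1 in both libraries.

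The signalling pair stood close together. Dock1 (ENSMUSG00000058325.6, chromosome 7, 134670654 to 135173639), the exchange factor of the complex, was listed at 81.5 and 72.4 TPM from 3100 and 3948 counts. Elmo1 (ENSMUSG00000041112.17, chromosome 13, 20090596 to 20608353), its partner, was listed at 69.9 and 71.8 TPM from 1588 and 2132 counts. Their ratio, Dock1 over Elmo1, was 1.17 and 1.01 in the gene table and 1.00 and 0.956 by the other quantification. In the gene table's order of the 9 levels every neighbouring pair differed by more than the sum of its SDs except Dock1 and Elmo1. These lay 6.12 TPM apart with SDs that sum to 7.71. In the second transcript table more pairs fell short. Among them were Mertk (119 ± 23.0 TPM) and Gas6 (96.1 ± 33.9 TPM), and Mfge8 (16.8 ± 3.02 TPM) and Axl (13.7 ± 2.62 TPM).

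**Figure D1:**
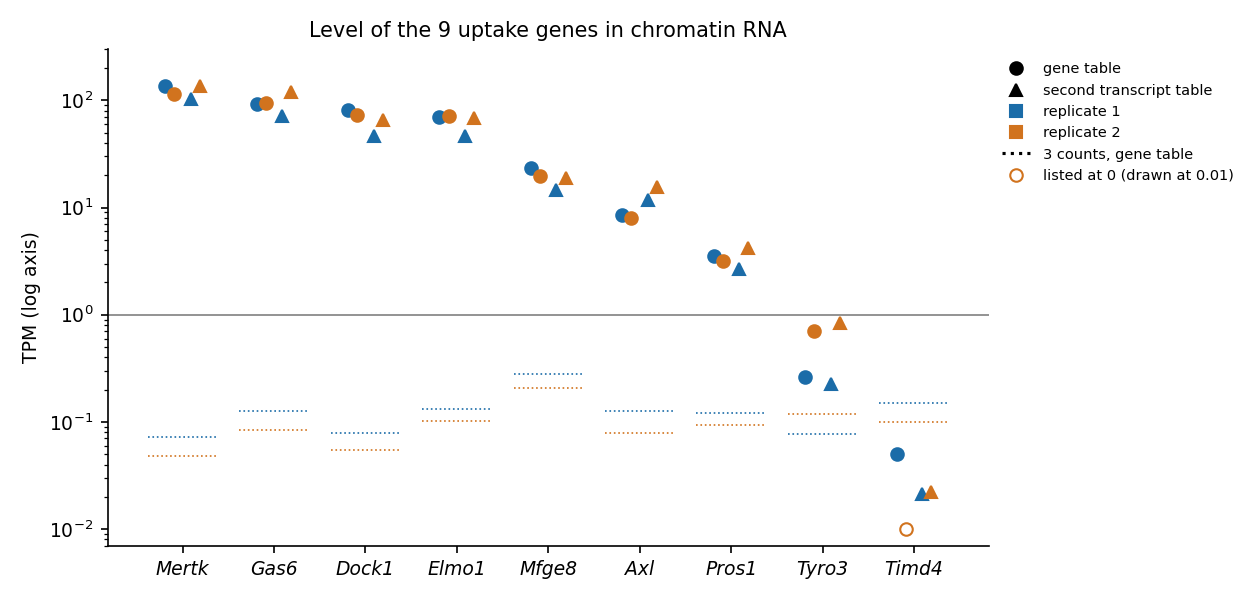
TPM (log axis) of the 9 genes in replicate 1 (blue) and replicate 2 (orange), from the gene table (circles) and the second transcript table (triangles). The grey line marks 1 TPM and dotted lines 3 counts, and 7 genes lie above 1 TPM in all 4 values, Tyro3 lies below it and Timd4 lies below its 3-count lines.

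The replicates were close for all genes with enough reads. Log2 ratios of replicate 2 over replicate 1, on scaled expected counts plus 0.5, ran from -0.29 for Mfge8 to 0.35 for Tyro3 over the 8 genes with a mean of 10 counts. Mertk stood at -0.14, Gas6 at 0.14, Dock1 at -0.14, Elmo1 at -0.06, Axl at 0.13 and Pros1 at -0.27. None of the 8 reached a 2-fold difference, against 2.84% of the 15193 genes with such counts. Tyro3 differed more by TPM than by counts. Its mean effective length was 3749 bases in replicate 1 and 1631 in replicate 2.

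The tables also gave similar levels. In the second transcript table replicate 2 was above replicate 1 for all 9 genes (Mertk 103 and 136 TPM, Gas6 72.2 and 120, Dock1 47.0 and 65.5, Elmo1 46.8 and 68.5). Beside this, the share of TPM on protein-coding and long non-coding genes was 36.3% and 50.02% in that table and 40.2% and 34.5% in the gene table. Rescaled to those genes, Mertk stood at 336 and 332 TPM in the gene table and at 284 and 271 in the second table. Of the 8 genes none differed 2-fold between tables in mean TPM, against 18.3% of the 15193 genes. Axl came nearest, 1.66 times higher in the second table, and Dock1 was at 0.731 times. Few reads of the 9 genes were shared with other genes: the deposited posterior SD of the count was 0 for 8 of them and 2.82 and 3.07 counts for Elmo1.

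The GENCODE transcripts of each gene differ in which exons and which stretches of intron they hold, and both kinds of transcript table divide a gene's reads among them. Gas6 and Timd4 have 1 transcript each, and Mertk was almost wholly its full coding transcript Mertk-201 (98.2% and 98.6% of counts, 19 exons). Axl-201, also the full coding form, held 78.7% and 85.1% of Axl counts, or 53.2% and 51.6% in the second transcript table. Pros1-201 held 93.0% and 87.8% of the 87 and 101 Pros1 counts, too few for a stable share. For Gas6, with 1 transcript, the share of the coding form was fixed by the annotation. Mertk has 2 transcripts, so only reads on the other form could lower its share. Among their annotated transcripts, Mertk, Axl and Pros1 were mostly full-length coding forms by counts. Mfge8, Dock1 and Elmo1 were not: the full coding form held 19.8% and 18.3% of counts for Mfge8 (Mfge8-201), 28.5% and 26.6% for Dock1 (Dock1-201) and 24.9% and 28.0% for Elmo1 (Elmo1-201). Reads in exons that several transcripts share cannot be assigned directly, so these shares are estimates, and reads in introns that no transcript covers are not in these tables.

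**Figure D2:**
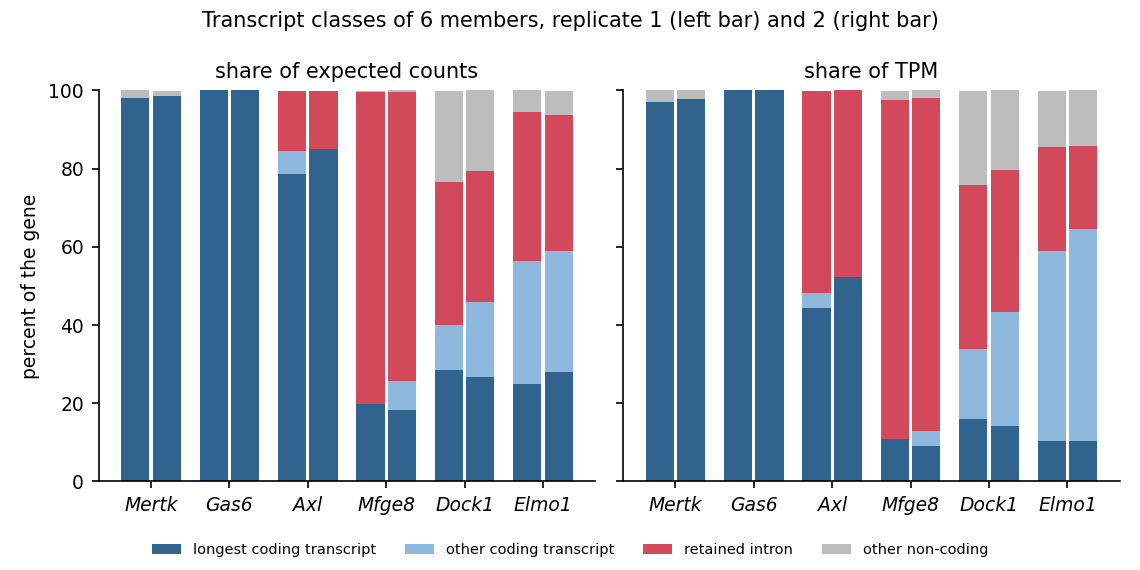
Percent of each gene's expected counts (left panel) and TPM (right panel) on 4 classes of transcript, for the 6 genes that had 100 counts or more in both libraries. Mertk is nearly all full coding transcript in both panels, and Gas6 is wholly so because it has only 1 annotated transcript. Mfge8 is mostly retained intron, and the retained-intron part of Axl is larger by TPM than by counts.

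Retained-intron transcripts, the GENCODE class for forms that keep part or all of an intron, are annotated for 6 of the 9 genes and could be read for the 4 of these that had 100 counts or more in both libraries. Mfge8 had 86.8% and 85.0% of its TPM on this class, Axl 51.9% and 47.7%, Dock1 41.8% and 36.4%, and Elmo1 26.5% and 21.3%. So 1 of the 4, Mfge8, had a mean share of at least 50%, against 48.1% of 5042 protein-coding genes with such a transcript and such counts, whose median share was 49.0%. Axl lay at the threshold with a mean of 49.8%. By counts Mfge8 remained high (79.8% and 74.0%) while Axl stood at 15.4% and 14.9%. Axl-207 and Axl-208, forms of this class, are 455 and 382 bases long where Axl-201 has 4265, and TPM divides by length. In the second transcript table the TPM share was 86.3% and 82.5% for Mfge8 and 80.3% and 76.1% for Axl. The share of counts there was 84.1% and 81.1% for Mfge8 and 37.7% and 34.0% for Axl, higher for Axl than in the first. Pros1 (26.6% and 40.6%) and Tyro3 (0% and 42.3%) had too few reads for a stable share.

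The forms that keep intron sequence are shown by the junction they read through. Each sequence below is from the GENCODE M21 transcript, 5′ to 3′ on the strand of the gene, with the last 10 bases of the exon in lower case and the first 20 bases of the intron in capitals. Introns are numbered on the full coding transcript. In the spliced form the capitals would be absent.
Mfge8-204, intron 3, chr7:79145227-79145256, minus strand: tgtgaaaccgGTAAGCACTGGGGGGCCTGT
Mfge8-209, intron 4, chr7:79143258-79143287, minus strand: ctagcctcccGTGAGTTAACTCTGCTGGCT
Mfge8-208, intron 6, chr7:79142382-79142411, minus strand: tggagacaagGTGGGTCTAAGGAGAGGAGT
Axl-205, intron 15, chr7:25764402-25764431, minus strand: aggctcattgGTGAGGGAGGAGCATGTTCT
Dock1-206, intron 21, chr7:134782838-134782867, plus strand: tagcctacacGTGAGTTCTCTTACGTTATT
Dock1-205, intron 27, chr7:134876306-134876335, plus strand: cgagctcattGTAAGTGCCCAGAGACACAC
Elmo1-204, intron 7, chr13:20261583-20261612, plus strand: tgaagccctgGTAAGGATATATCTCCTGAT
Elmo1-202, intron 14, chr13:20342463-20342492, plus strand: atacatccggGTAAGCATGCTGGCTTCTCT
Elmo1-203, intron 20, chr13:20589717-20589746, plus strand: acaaaacaagGTATGGTTTTCTAAATCACT
Dock1-206 and Elmo1-202 are annotated as protein-coding and end inside the intron shown. All 9 stretches of intron open with GT, as did all 17 different sites that a transcript of the 9 genes reads through.

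Mfge8-209 held the most Mfge8 reads, 45.3% and 34.9% of counts. It starts inside intron 3, keeps the whole of intron 4 and runs to the last exon. That intron is 227 bases long with 54.2% G or C, and is shown whole because it is the only intron of Mfge8 that a transcript keeps entire, with its first and last 2 bases in capitals.
Mfge8 intron 4, chr7:79143051-79143277, minus strand: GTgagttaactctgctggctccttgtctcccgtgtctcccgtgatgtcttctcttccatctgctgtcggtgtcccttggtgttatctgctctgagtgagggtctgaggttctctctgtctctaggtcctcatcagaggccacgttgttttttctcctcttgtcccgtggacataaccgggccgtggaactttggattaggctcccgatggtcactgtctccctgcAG
Mfge8-204, which ends inside intron 3, held 11.6% and 16.9% of counts, and Mfge8-208, which ends inside intron 6, held 10.9% and 9.7%. Mfge8-203 and Mfge8-206 were under 10% of counts. In Axl, Axl-205 keeps the whole of intron 15 and held 10.5% and 9.6% of counts in the first transcript table. No other Axl form of the class passed 3% there in either replicate. In the second transcript table Axl-205 held 22.2% and 20.7% of counts. By TPM in the second table, Axl-208 (24.5%) and Axl-207 (21.1%) led over Axl-201 (17.4%).

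Smaller forms carried little of the remaining genes by counts and more by TPM or in the second table. Mertk-202, a non-coding form that begins in intron 8 and shares the 3′ exons of Mertk, held 1.81% and 1.40% of Mertk counts in the first transcript table and 11.0% and 10.9% in the second. Pros1-203, which begins in intron 3, held 6.90% and 12.2% of Pros1 counts. The reads of Tyro3 went wholly to the coding form Tyro3-201 in replicate 1, and in replicate 2 to Tyro3-201 (46.5%) and to the retained-intron form Tyro3-207 (42.4%), from 10 and 18 counts in all. The long coding form Tyro3-202 was listed at 0 in both libraries.

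Dock1 and Elmo1 span 503 kb and 518 kb, at percentile 99.0 of protein-coding genes in span, and in both most reads lay on transcripts that end before the last exon. Dock1-201 alone holds exons beyond exon 29 of 52. Dock1-205, which ends 206 kb from the gene start inside intron 27, held 32.9% and 30.8% of counts. Dock1-204, which ends 353 kb from the start inside intron 29, held 23.5% and 20.6%. Dock1-206, which ends 112 kb from the start inside intron 21, held 11.5% and 19.4%. All 4 forms begin in the first exon, and 96.4% and 97.4% of Dock1 counts were on transcripts that overlap it. Transcripts that overlap the last exon held 28.5% and 26.6%. Such shares take all reads of a transcript, wherever in it they fall, and only Dock1-201 overlaps the last exon. They therefore do not measure how far reads cover either end of the gene.

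Elmo1 was divided at both ends. Elmo1-202, which begins inside intron 1 and ends inside intron 14, held 29.7% and 26.5% of counts. Elmo1-204, from the first exon to intron 7, held 20.2% and 19.1%. Elmo1-203, which begins inside intron 16, 382 kb from the gene start, and ends inside intron 20, held 17.7% and 15.7%. Elmo1-205 and Elmo1-207, short forms from the middle of the gene, held 5.6% and 6.2% and 1.6% and 4.2% of counts, and averaged 14.3% and 17.2% of TPM. Transcripts that overlap the first exon held 45.1% and 47.1% of Elmo1 counts, and those that overlap the last exon 24.9% and 28.0%.

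**Figure D3:**
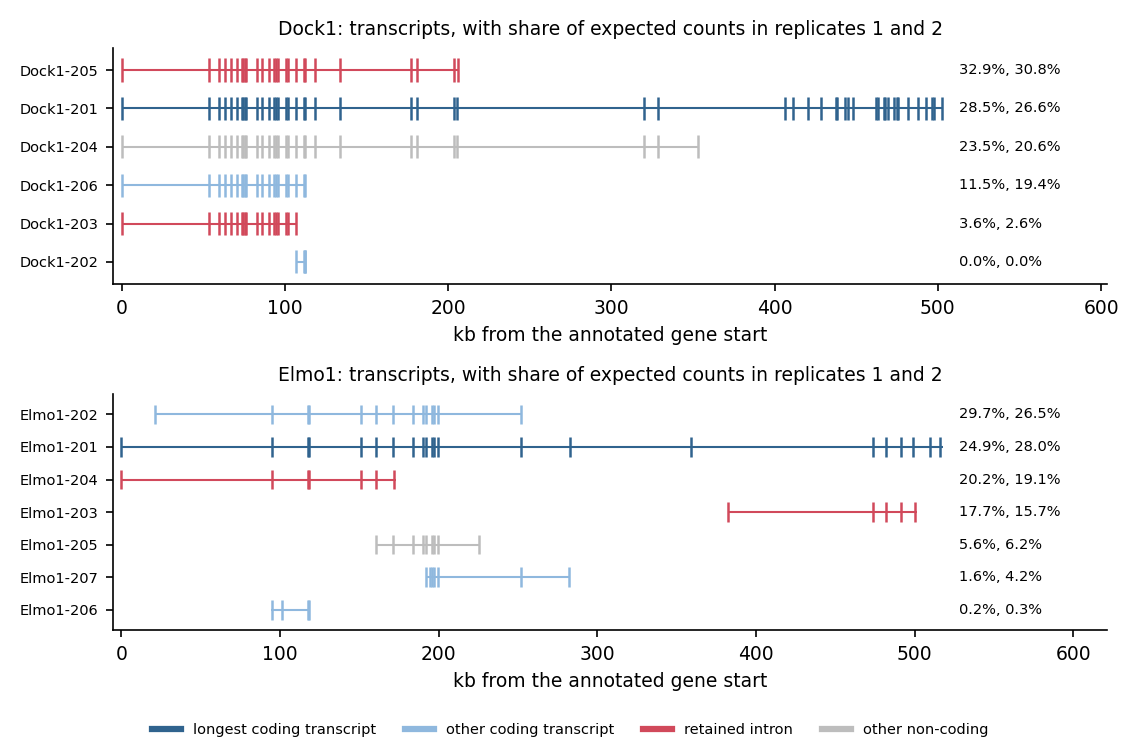
Transcripts of Dock1 and Elmo1 in kb from the annotated gene start (horizontal axis), ordered by share of expected counts; ticks are exons, and the percentages are the shares in replicates 1 and 2. The 3 Dock1 forms Dock1-205, Dock1-204 and Dock1-206 stop at 206, 353 and 112 kb, and Elmo1-203 begins at 382 kb.

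These shares were set beside those of 6954 protein-coding genes with at least 2 transcripts and 100 counts in both libraries, a measure chosen after the data had been seen. Of the 5 of the 9 genes in that set, Dock1 and Elmo1 were under 50%, against 18.0% of all 6954, whose median share was 81.7%. Mertk stood at 100%, the only value possible, as both of its annotated transcripts overlap the last exon. Axl stood at 84.9% and Mfge8 at 69.3%. The second transcript table gave 29.5% for Dock1 and 30.7% for Elmo1. Long genes as a class were low: of 68 genes of 400 kb or more, 55.9% were under 50% and the median was 46.5%, with Elmo1 at position 22 and Dock1 at position 24 from the lowest. Among the 2323 genes under 20 kb the figure was 13.6% with a median of 87.6%. The position of the pair among genes of their own length was thus in the lower part and not at the end.

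**Figure D4:**
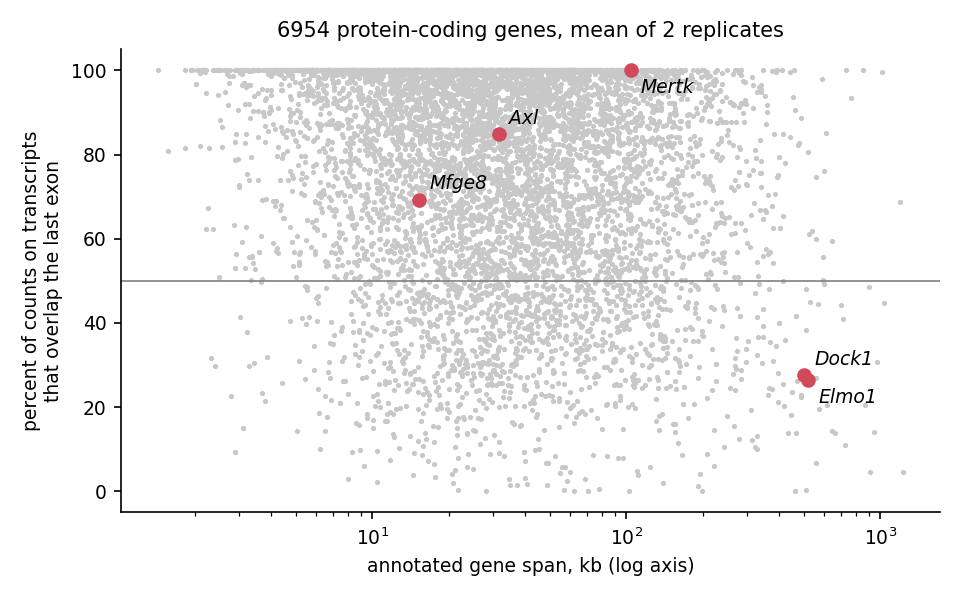
Percent of a gene's expected counts on transcripts that overlap its last exon (mean of 2 replicates) against annotated gene span in kb (log axis), for 6954 protein-coding genes (grey) and the 5 named genes (red). Dock1 and Elmo1 lie at 27.6% and 26.4% near 500 kb. Axl and Mfge8 lie above 50%, as does Mertk, whose transcripts allow no value but 100%.

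Both long genes hold other annotated genes in their introns. Fam196a lies in Dock1 on the opposite strand and had 347 and 426 counts, equal to 11.2% and 10.8% of those of Dock1. Gm47664, on the same strand inside Elmo1, had 318 and 336 counts (20.0% and 15.8% of those of Elmo1), and Gm47657 had 179 and 246 (11.3% and 11.5%). Per kb of exon, Fam196a had 53.8 and 66.1 counts where Dock1 had 332 and 423. Gm47664 had 237 and 251 counts per kb, above the 126 and 169 of Elmo1 itself. None of these 3 shares exon sequence with its host gene. The antisense gene Gm32036 shares 403 bases with Elmo1 exons. Reads of unspliced Dock1 or Elmo1 RNA that cross the exons of Gm47664, Gm47657 or another gene on the same strand cannot be told apart from reads of that gene. The same holds for Fam196a and Gm32036 on the opposite strand, as the sources used here do not say whether strand was kept.

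The RefSeq promoter table holds 1 start for each of 8 of the genes and 2 for Elmo1, the second of which lies inside the first exon of Elmo1-203. The 250 bases before each Elmo1 start are shown because reads fell on transcripts that begin near both. Those of Mertk and Timd4 are shown as the highest and lowest of the 9 levels. They are RefSeq sequence on GRCm38.p6, with CG pairs in capitals.
Elmo1, chr13:20090257-20090506, plus strand: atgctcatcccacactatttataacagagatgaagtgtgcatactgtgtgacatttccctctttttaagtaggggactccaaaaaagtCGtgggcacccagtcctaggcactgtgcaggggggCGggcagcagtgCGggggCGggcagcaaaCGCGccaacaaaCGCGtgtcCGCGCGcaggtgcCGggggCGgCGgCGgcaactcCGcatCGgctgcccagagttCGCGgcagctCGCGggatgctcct
Elmo1, chr13:20472740-20472989, plus strand: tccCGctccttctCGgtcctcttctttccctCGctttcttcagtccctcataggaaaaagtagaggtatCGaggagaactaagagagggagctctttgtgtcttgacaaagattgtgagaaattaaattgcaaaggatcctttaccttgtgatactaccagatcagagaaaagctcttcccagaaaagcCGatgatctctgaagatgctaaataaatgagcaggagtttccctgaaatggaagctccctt
Mertk, chr2:128698665-128698914, plus strand: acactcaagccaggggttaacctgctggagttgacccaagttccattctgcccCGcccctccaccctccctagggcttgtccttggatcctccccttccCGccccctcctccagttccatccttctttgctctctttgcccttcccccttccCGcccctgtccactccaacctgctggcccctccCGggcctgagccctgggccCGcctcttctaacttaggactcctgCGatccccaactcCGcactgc
Timd4, chr11:46810549-46810798, plus strand: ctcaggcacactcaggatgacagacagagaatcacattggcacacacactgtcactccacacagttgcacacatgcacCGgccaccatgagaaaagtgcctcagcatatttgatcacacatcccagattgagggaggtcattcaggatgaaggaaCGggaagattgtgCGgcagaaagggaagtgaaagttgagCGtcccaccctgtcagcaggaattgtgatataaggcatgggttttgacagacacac
The first Elmo1 window held 21 CG pairs, a count that 16.3% of 32851 such windows reached, and the second held 5. Mertk had 7 and Timd4 4, where the median of all windows was 6. The remaining windows ran from 5 for Axl to 29 for Dock1, with 10 for Gas6, 12 for Mfge8, 15 for Pros1 and 24 for Tyro3, so that a count of CG pairs did not follow the order of the levels. The motif GAGGAAGT, a form of the site of the macrophage factor PU.1, searched on both strands of the whole 300-base window, was present in 1 of the 10 windows, that of the first Elmo1 start, and in 3.20% of all windows. A match is a description of the letters only.

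The other genes of apoptotic cell clearance were described by list, with levels, order and detection from the gene table unless the second table is named. Of 15 other uptake receptors 12 were detected, at a median of 19.2 TPM, led by the scavenger receptor Stab1 (878 and 636 TPM) and Lrp1, a large endocytic receptor (369 and 263 TPM). Both exceeded Mertk in each library. Havcr1 (TIM-1) and Adgrb1 (BAI1) had no read in either table. Of 9 other bridges 6 were detected at a median of 1.96 TPM, led by Anxa1 (72.9 and 78.1 TPM) and the complement gene C1qc (46.9 and 43.2 TPM). In the gene table both lay below Gas6 in each library, while the second transcript table listed Anxa1 above Gas6 (80.1 and 125 TPM against 72.2 and 120). Apoh had no read in either table, and Tulp1, at 0 in the gene table, was listed at 9.76 and 11.1 TPM in the second. The median of this list was 10.4 TPM in the second table.

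Among 15 other engulfment signalling genes 13 were detected at a median of 11.7 TPM. Dock2, the Rac exchange factor of blood cells and a relative of Dock1, led with 284 and 273 TPM, above Dock1 in each library, followed by Trio (187 and 142 TPM). Bcar1 and Gulp1, an adaptor of engulfment receptors, were listed at 0 in the gene table and in the second transcript table at 0.906 and 1.24 TPM and at 0.842 and 2.11 TPM. The second table also put the GTPase genes Rac1 (44.8 and 61.5 TPM, against 11.5 and 8.21) and Rac2 (53.4 and 79.2 TPM, against 8.68 and 7.75) higher, and the median of this list at 34.3 TPM. Of 6 genes of vitamin K-dependent carboxylation and of TAM receptor shedding 5 were detected, led by the sheddases Adam17 (31.7 and 26.4 TPM) and Adam10 (13.5 and 11.4 TPM). Vkorc1, which recycles vitamin K, was lowest at 1.26 and 0.36 TPM from 6 and 2 counts.

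Signals before and after uptake were also present. Of 5 genes for signals that hold back uptake 3 were detected, with Lilrb4a at 977 and 1084 TPM and Sirpa, the receptor of CD47, at 575 and 539 TPM. Siglece stood at 0.12 and 0.13 TPM, or 1.67 and 2.27 TPM in the second transcript table. Pecam1 stood at 0.33 and 0.19 TPM, or 4.88 and 6.64 TPM in the second. Of 6 receptors for signals that attract a macrophage to dying cells 3 were detected, led by the nucleotide receptors P2ry6 (56.0 and 49.0 TPM) and P2ry2 (10.3 and 8.06 TPM), and the fractalkine receptor Cx3cr1 was lowest in the gene table with 1 count in each library. The second transcript table listed Cx3cr1 at 1.85 and 2.71 TPM, above P2ry12 (0.451 and 0.714 TPM). All 11 genes of corpse processing were detected at a median of 41.4 TPM, from Rab14 (114 and 111 TPM) and Lamp2 (99.3 and 99.6 TPM) to Rab5a (10.7 and 11.4 TPM). All 10 genes listed for the lipid of the taken-up cell, not all of them receptors or efflux genes, were detected. Their median was 21.8 TPM (35.9 TPM in the second table). Levels ran from the cholesterol exporter Abca1 (190 and 136 TPM) and Ucp2 (106 and 93.1 TPM) to Abca7 (10.6 and 8.43 TPM).

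**Figure D5:**
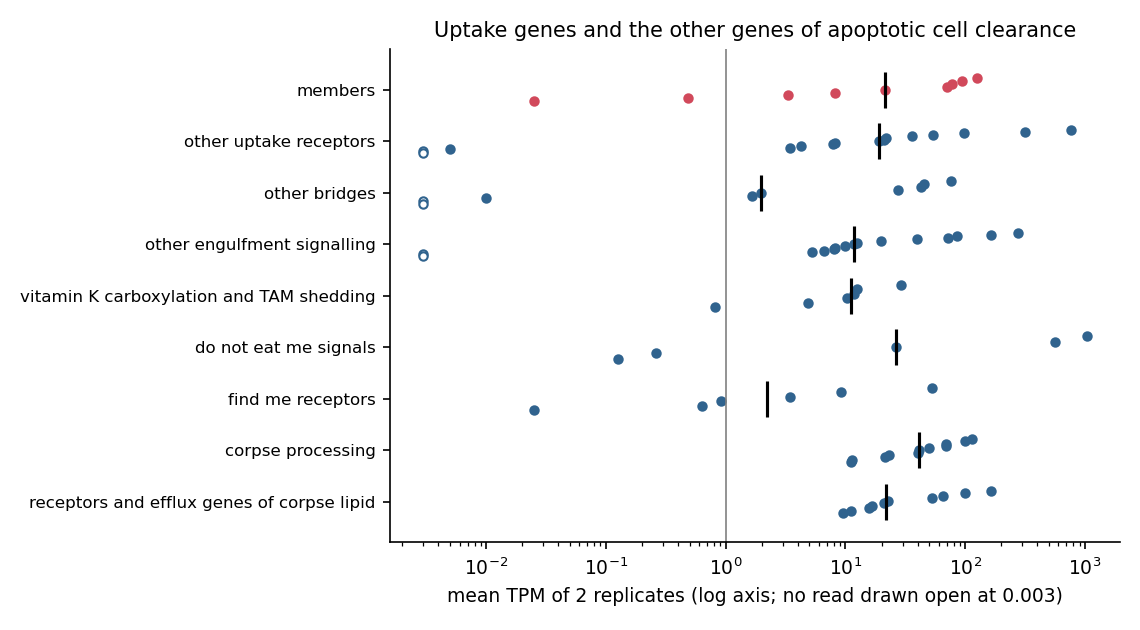
Mean TPM of 2 replicates in the gene table (log axis) for each gene of the 9 described here (red) and of 8 lists of other clearance genes (blue), with the list median as a black bar and 1 TPM as a grey line. All genes of the corpse processing list and of the list headed lipid receptors and efflux lie above 1 TPM, and the other lists hold genes below it.

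With 2 libraries of 1 group, likeness of pattern across conditions between these and other genes could not be measured, so no gene is named for it.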

How the data were processed

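RNA of the chromatin fraction was measured in 2 libraries of 1 group. Per the file headers and the notes deposited with them, the authors made a gene table and a first transcript table from an alignment to GENCODE M21 transcripts on mm10, and a further transcript table directly from reads with an index. The layouts are those of RSEM and kallisto, and for tools and versions nothing is given in the sources used here. Expected counts as deposited are estimates and need not be whole, and TPM as deposited has 1 fixed sum per library. Other deposited values, the posterior SD of the count and the bounds of the posterior TPM, only describe shared reads.

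The members and lists were chosen with earlier results of these data known. All members were named, with the 2 highest and the lowest gene of each pathway list, the highest of each marker list, overlapping genes with at least 10% of a member's counts, and transcripts with at least 10% of its TPM. Not every gene the rule takes is in the text. Genes listed at 0, C1qa, C1qb, Rac1, Rac2, Dock4, Gpr132, P2ry12, Spic, Cd163, Vsig4, Folr2 and Gm32036 were named after their values were seen. So were Col1a1, Flt1 and Pecam1. A phage entry with 0.338% and 0.270% of counts, 96 spike-in entries and 26248 numbered entries were left out of library sizes. Detection meant 1 TPM in both replicates. Log2 ratios used expected counts scaled by TMM (edgeR 4.0.16 in R 4.3.3) plus 0.5, over genes with a mean of 10 counts, with DESeq2 1.42.0 size factors as an alternative. Shares set beside those of all genes used genes with 100 counts in each replicate, and those printed for Pros1 and Tyro3 rest on fewer. A count of 0 allows 3 counts, or 0.274 and 0.212 RPM. Other steps used Python 3.11.15, numpy 2.4.6 and pandas 2.3.3. The log2 ratio step was tested on simulated counts, and the transcript shares on a made-up gene with known answers.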

Additional observations from a re-analysis of the deposited data

How the results depend on the processing

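The count of detected genes stayed at 7 under the second transcript table, the rescaled TPM, the thresholds of 0.5 and 2 TPM and without either replicate, and became 8 with the posterior mean TPM, where Tyro3 was listed at 1.74 and 1.71. The median level was 16.8 TPM in the second transcript table and 57.6 TPM rescaled over protein-coding and long non-coding genes. Mertk over Axl averaged 15.2 and became 11.5 by posterior mean TPM and 8.74 in the second table, and Gas6 over Pros1 averaged 28.2 and became 24.2 by posterior mean TPM, settings chosen after the data were seen, as were those of the last-exon count, which stayed at 2 under each. The count of genes past 2-fold between replicates was 0 and became 1 with log2 of TPM plus 0.1 (Tyro3, 1.17) and 1 without the count filter (Timd4), and that between tables was 0 under each alternative. The count with a retained-intron share of at least 50% was 1 and became 2 in the second table, and ran from 1 to 2 without each replicate, as Axl stood at 51.9% without replicate 2. The cause was not tested. No paired analysis was possible because there is 1 group. Depth limits Tyro3, Timd4 and Pros1 most.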

Other observations

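The complement genes C1qa, C1qb and C1qc, neighbours that encode the chains of 1 complex that binds apoptotic cells, were unequal in chromatin RNA. C1qa stood at 2.05 and 1.86 TPM from 17 and 23 counts, C1qb at 49.8 and 34.9 TPM and C1qc at 46.9 and 43.2 TPM. The second transcript table gave C1qa 1.60 and 2.50 TPM against 55.5 and 64.0 for C1qb. Among other long genes of the Dock family, transcripts that overlap the last exon held 26.8% of Dock2 counts and 39.9% of Dock4 counts, beside 27.6% for Dock1. Of the find-me receptors, P2ry12 (6 and 21 counts) and Gpr132 (14 and 43 counts) were higher in replicate 2, by 1.26 and 1.11 on the log2 scale.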
